A study of Homo sapiens with 4 samples.

Results

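The MAGE (melanoma antigen) family was examined across 4 RNA libraries from 2 prostate cancer cell lines. Genes were taken by symbol, as every deposited row named MAGEA to MAGEH with an optional number and letter, or MAGEL2. The rule found 20 of the 35211 genes in the count table, 13 of type I (10 MAGEA, 1 MAGEB and 2 MAGEC genes) and 7 of type II (4 MAGED genes, MAGEE1, MAGEF1 and MAGEH1). MAGEL2 had no row and was not analysed here.

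The groups were PC3 with the circ0003553 overexpression plasmid, PC3 with the negative control plasmid, DU145 with the circ0003553 overexpression plasmid and DU145 with the negative control plasmid, and each held 1 library. PC3 and DU145 are established human prostate cancer lines, and every group had received a plasmid. The circular RNA circ0003553 is given with the gene name RCAN3 in the sample titles. Ribosomal RNA-depleted total RNA was sequenced, and a count per gene holds reads of circular and linear transcripts alike.

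As background, MAGE proteins share a MAGE homology domain through which many of them bind RING-type ubiquitin ligases and change which proteins those ligases mark. Type I genes lie in clusters on the X chromosome and are known as cancer-testis antigens, since they are transcribed in germ cells, are kept silent by promoter DNA methylation in most adult tissues and are switched on in many tumours. Type II genes are transcribed in many normal tissues.

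In these data the type I genes were found almost only in PC3, and the type II genes in both lines. Of the 20 genes, 20 had a count in at least 1 PC3 library and 8 in at least 1 DU145 library. The share of all genes with a count in each line was not taken, so these numbers do not set the MAGE genes apart. No deposited row was at 0 in all 4 libraries. A gene at 0 in both DU145 libraries was thus listed only through PC3, and for such genes a PC3 count was fixed in advance. All 10 MAGEA genes and both MAGEC genes had 0 counts in both DU145 libraries, and MAGEB17 was the only type I gene with counts there. The circ0003553 plasmid was not followed by a called change in any MAGE gene.

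Counts totalled 33438509 to 39488890 per library. The epithelial markers KRT8, KRT18, KRT19, EPCAM and CDH1 had counts in all 4 libraries. All 5 were called lower in PC3 than in DU145, as were 32.9% of all tested genes. CDH1 had 108 and 84 counts in PC3 with circ0003553 and control, against 2478 and 4821 in DU145. Among markers of other cells, the 3 leukocyte genes found summed to 0.299 to 0.631 CPM (a gene's counts scaled to a library total of 1e6). COL1A1 of the fibroblast list had 1519 and 1153 counts in PC3 with circ0003553 and control, against 124 and 216 in DU145, and the endothelial gene PECAM1 had 595 and 585 against 14 and 10. DCN and LUM of fibroblasts and CDH5 and VWF of endothelium stayed at 14 counts or fewer in every library. In whole-culture RNA, fewer expressing cells and less RNA per cell cannot be told apart.

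The sequences shown here are promoters of MAGE genes, and whether they bear on the PC3 pattern was not tested. Promoter windows from RefSeq (GRCh38.p14), from 250 bases before to 50 bases after a gene's start, were found for 9 of the 13 type I and 6 of the 7 type II genes. The windows of MAGEA3 and MAGEA6 were identical over all 300 bases, and so were that of MAGEA2B and the second of MAGEA2, while the first windows of MAGEA12 and MAGEA2 were 89.6% identical. Below are the shared MAGEA3 and MAGEA6 window, those of MAGEA2B and MAGEA12 (its first start), the first window of MAGEA4, which was near 0 in every library, and that of the type II gene MAGEF1 for contrast. Capitals mark GGATGTGA and TGACTTGCGC, searched on both strands, which do not overlap each other. Both were taken from the MAGEA3 window after the sequences had been read, so MAGEA3 and MAGEA6 had to hold them.
MAGEA6 (chrX:152769640-152769939, minus strand): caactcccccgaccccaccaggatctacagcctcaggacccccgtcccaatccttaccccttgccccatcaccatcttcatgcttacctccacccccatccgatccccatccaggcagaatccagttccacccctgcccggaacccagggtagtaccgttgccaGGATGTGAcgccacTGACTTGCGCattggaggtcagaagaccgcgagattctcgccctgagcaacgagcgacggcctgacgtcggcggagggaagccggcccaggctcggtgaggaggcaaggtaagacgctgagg
MAGEA2B (chrX:152714378-152714677, plus strand): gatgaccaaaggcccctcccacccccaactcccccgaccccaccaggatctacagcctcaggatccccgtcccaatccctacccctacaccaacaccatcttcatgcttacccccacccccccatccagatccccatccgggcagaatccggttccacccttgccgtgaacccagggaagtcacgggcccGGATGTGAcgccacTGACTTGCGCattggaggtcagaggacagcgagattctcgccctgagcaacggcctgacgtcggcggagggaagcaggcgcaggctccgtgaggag
MAGEA12 (chrX:152733507-152733806, plus strand): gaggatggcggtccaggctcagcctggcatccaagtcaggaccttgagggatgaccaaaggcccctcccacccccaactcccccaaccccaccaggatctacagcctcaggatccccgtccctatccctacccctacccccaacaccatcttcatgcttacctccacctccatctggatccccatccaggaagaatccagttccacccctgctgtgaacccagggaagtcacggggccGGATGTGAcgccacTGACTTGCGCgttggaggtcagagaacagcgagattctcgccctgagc
MAGEA4 (chrX:151912224-151912523, plus strand): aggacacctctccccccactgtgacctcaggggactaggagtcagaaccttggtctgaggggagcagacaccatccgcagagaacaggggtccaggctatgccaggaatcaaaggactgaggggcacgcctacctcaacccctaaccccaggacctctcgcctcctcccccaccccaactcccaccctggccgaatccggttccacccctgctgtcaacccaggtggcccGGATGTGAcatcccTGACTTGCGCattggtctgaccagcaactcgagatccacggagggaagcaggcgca
MAGEF1 (chr3:184712015-184712314, minus strand): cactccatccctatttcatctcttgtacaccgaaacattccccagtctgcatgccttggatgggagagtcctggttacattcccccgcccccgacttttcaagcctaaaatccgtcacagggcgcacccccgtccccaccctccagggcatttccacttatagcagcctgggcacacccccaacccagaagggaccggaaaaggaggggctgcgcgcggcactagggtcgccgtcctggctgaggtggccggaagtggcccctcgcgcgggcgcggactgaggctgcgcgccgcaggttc

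GGATGTGA holds the GGAT core that proteins of the ETS transcription factor family bind, and in MAGEA6 and MAGEA3 it began at -86 from the start, which is counted as 0, in MAGEA2B at -60, in MAGEA12 at -12 and in MAGEA4 at -20. It was found in 7 of the 9 type I genes with a window, MAGEA2, MAGEA2B, MAGEA3, MAGEA4, MAGEA6, MAGEA8 and MAGEA12, and in none of the 6 type II genes. TGACTTGCGC was found in the same genes apart from MAGEA8. Of all 35116 promoter windows, 1.16% held GGATGTGA, 0.0598% held TGACTTGCGC and 0.0456% held both. Since both motifs come from MAGEA3, and some MAGEA windows are copies of each other, the matches in MAGEA genes are not separate findings. The 10 genes with both were 6 MAGEA genes and CSAG1, CSAG3, MAGEA3-DT and MAGEA6-DT, of which CSAG1 and CSAG3 lie between MAGEA genes. Both motifs stood in MAGEA3 and MAGEA6, the MAGEA genes with the most counts in PC3, and in MAGEA4, with 1 to 3 counts there. CG dinucleotides, where DNA methylation is placed, numbered 19 in the MAGEA6 window and 9 in the first MAGEA12 window. They numbered 10 in the first MAGEA4 window and 21 in the MAGEF1 window, with a median of 14 over all windows. The shorter ETS core GGAA stood in 95.5% of all windows, with 5 copies in MAGEF1 and 8 in MAGEC2, so that core is not particular to MAGEA promoters. A match describes the letters and not binding.

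MAGEA6 had 1518 and 1386 counts in PC3 with circ0003553 and control, and 0 in both DU145 libraries. MAGEA3 had 264 and 226 counts in PC3 and 0 in both DU145 libraries. The products of both genes are known to join the ubiquitin ligase TRIM28 and direct it at the kinase AMPK. Per length, MAGEA6 stood at 20.6 and 22.2 RPKM (CPM per kilobase of gene length) in PC3 with circ0003553 and control, and MAGEA3 at 3.74 and 3.78 RPKM.

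MAGEA12, another member recognised as a tumour antigen, had 78 and 42 counts in PC3 with circ0003553 and control and 0 in DU145. MAGEA2, whose product also binds TRIM28, had 38 and 18 counts in PC3, and its near-identical copy MAGEA2B had 15 and 18, with 0 for both in DU145. MAGEA1, the first MAGE gene described as a T-cell antigen of melanoma, had 18 and 16 counts in PC3 and 0 in DU145. These 6 genes did not overlap between the lines, which was also so for 81.9% of all tested genes (38.2% higher and 43.7% lower in PC3).

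The 6 type I genes below 10 counts in every library were MAGEA4, MAGEA5, MAGEA8, MAGEA10, MAGEC2 and MAGEC3. They had at most 8 counts in PC3 and 0 in DU145. MAGEC3 had 8 and 0 counts in PC3 with circ0003553 and control, MAGEA8 had 6 and 0, and MAGEC2, whose product binds TRIM28, had 2 and 0. MAGEA4 and MAGEA10, both known tumour antigens, had 1 and 3 and 2 and 2 counts, and MAGEA5 had 0 and 2. Differences at this level were not detectable at this depth, since a count of 0 allows up to 3 counts, or 0.0760, 0.0897, 0.0823 and 0.0788 CPM in PC3 with circ0003553, PC3 control, DU145 with circ0003553 and DU145 control.

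**Figure D1:**
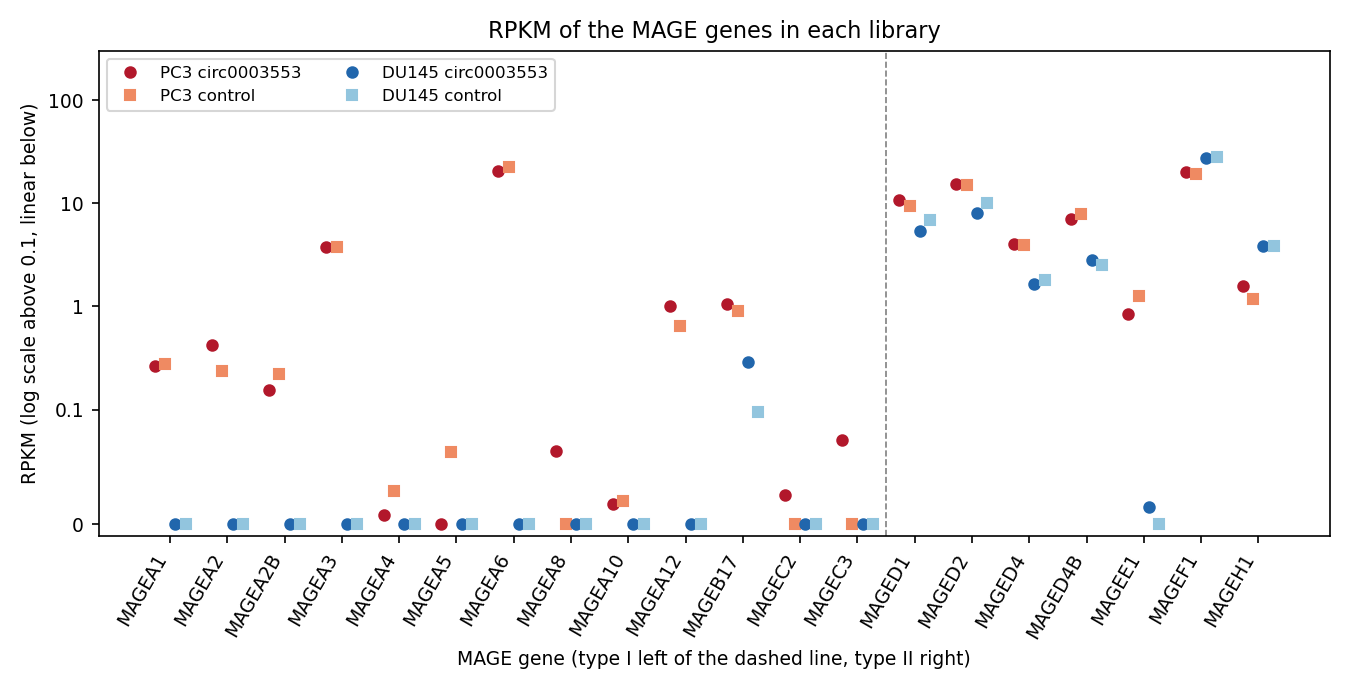
RPKM of each MAGE gene in each library, on an axis that is logarithmic above 0.1 and linear below, with circles for circ0003553 and squares for control libraries, PC3 in red and orange and DU145 in blue. The 10 MAGEA genes sit at 0 in DU145, while MAGEA6 reaches 20.6 and 22.2 RPKM in PC3.

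MAGEB17 was the only type I gene with counts in every library. It had 67 and 49 counts in PC3 with circ0003553 and control, against 17 and 6 in DU145. Of its exon bases 25.8% are shared with RP11-431J24.2 on the other strand, which had 113 and 75 counts in PC3 and 16 and 23 in DU145, and the strand setting of the counting is not given in the sources used here, so reads of the 2 genes may not be told apart.

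Summed over type I, counts made up 51.1 CPM in PC3 with circ0003553 (95% Poisson interval 48.0 to 54.4) and 52.7 CPM in PC3 control (49.3 to 56.3). In DU145 the sum was 0.466 CPM with circ0003553 (0.226 to 0.937) and 0.158 CPM with control (0.0325 to 0.461), all of it MAGEB17. The intervals take each read pair as 1 count by halving, because 70.3% to 75.3% of counts from 1 to 20 were even, and they cover counting error only. MAGEA6 alone gave 75.3% of the type I counts in PC3 with circ0003553 and 78.7% in PC3 control, and MAGEA3 and MAGEA6 together gave 88.3% and 91.5%.

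**Figure D2:**
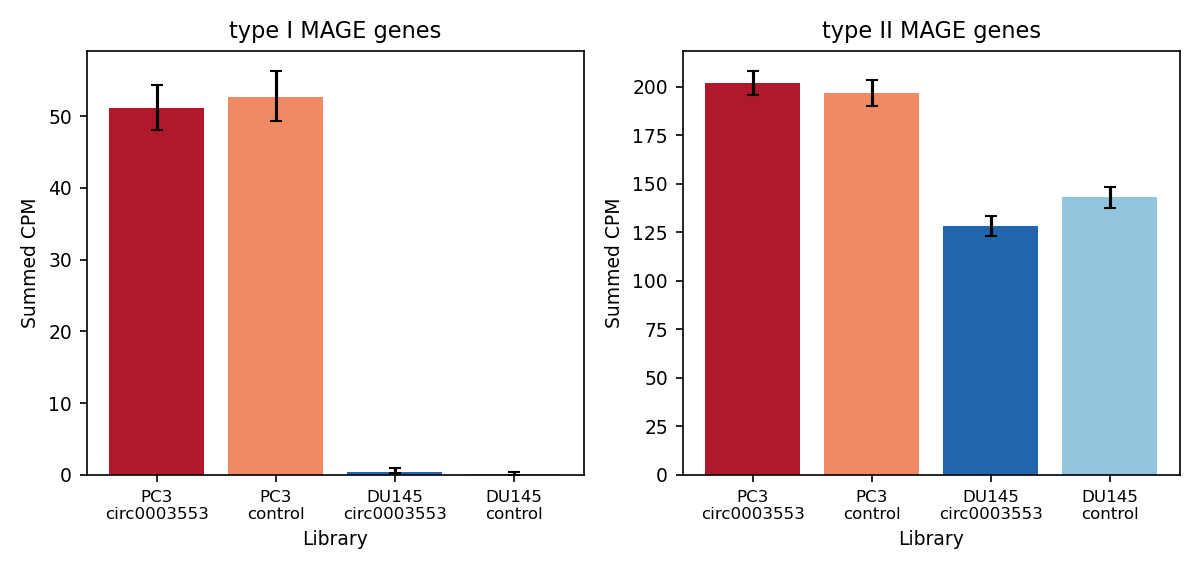
Summed CPM of the 13 type I genes (left) and the 7 type II genes (right) in each library, with bars from 0 and 95% Poisson intervals on halved counts. Type I reaches 51.1 and 52.7 CPM in PC3 and stays under 1 CPM in DU145, while type II lies between 128 and 202 CPM in all 4 libraries.

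Between MAGEA8 and MAGEA1 on the X chromosome, 3 runs of neighbouring rows were at 0 in DU145, with MAGEA8 and MAGEA1 themselves outside these runs. The first held CNGA2 and MAGEA4, with 3 and 3 counts in PC3 with circ0003553 and control, and the second held the 5 rows from MAGEA5 to GABRA3 over 337 kb, with 88 and 79 counts in PC3, most of them from GABRA3. The run with the most rows was that of MAGEA3 and MAGEA6. From MAGEA3 to MAGEA6 (chrX:152698752-152769747, hg38, a span of 71.0 kb) the table held 9 rows, 5 MAGEA genes and the cancer-testis genes CSAG1, CSAG2, CSAG3 and CSAG4. All 9 had 0 counts in both DU145 libraries, and together they had 2025 counts in PC3 with circ0003553 and 1782 in PC3 control. CSAG1, between MAGEA2B and MAGEA12, had 74 and 75 counts in PC3, and CSAG4, which shares 33 exon bases with MAGEA12, had 22 and 13. The genes on either side had counts in DU145. GABRQ, a GABA receptor subunit gene before MAGEA3, had 6 and 7 counts in PC3 and 80 and 94 in DU145, and CETN2, a centrin gene after MAGEA6, had 1118 and 970 counts in PC3 and 882 and 1116 in DU145. MAGEA1 lies beyond CETN2, at 481 kb from the start of MAGEA3, and MAGEA4, MAGEA5, MAGEA8 and MAGEA10 lie on the other side.

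**Figure D3:**
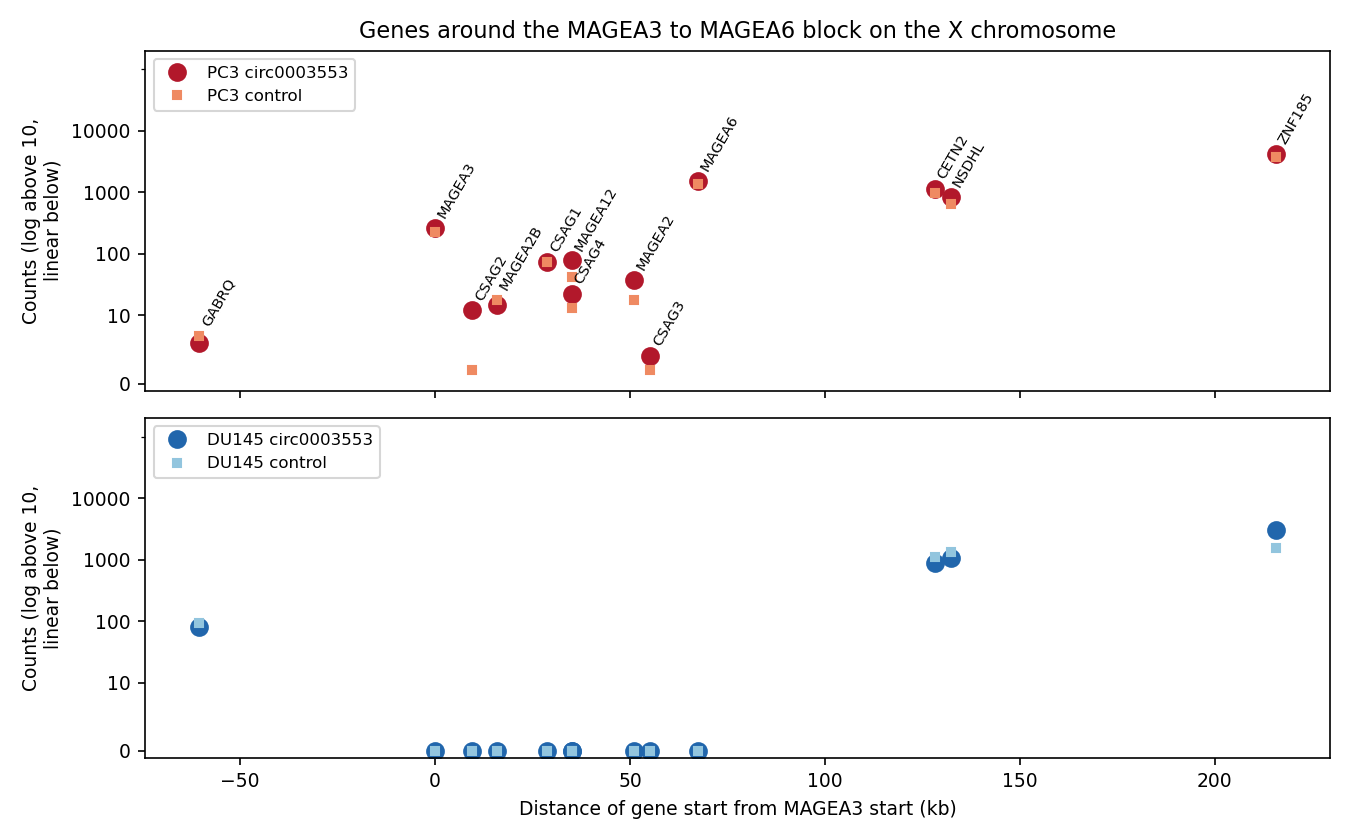
Counts of genes by the distance of their start from the MAGEA3 start in kb, for PC3 (top) and DU145 (bottom), on an axis that is logarithmic above 10 and linear below. The 9 genes from MAGEA3 to MAGEA6 are at 0 in DU145, where CETN2 has 882 and 1116 counts.

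Of the 45 rows from MAGEA8 to MAGEA1, 35 were not MAGE genes. Of these 35, 12 had at least 10 counts in all 4 libraries and 9 had 0 in both DU145 libraries. GABRA3, another GABA receptor subunit gene, had 85 and 70 counts in PC3 and 0 in DU145, and with CSAG1 and CSAG4 it made the 3 non-MAGE genes with 0 in DU145 and at least 10 in both PC3 libraries. The opposite pattern was that of 2 of the 35, PNMA6A with 0 counts in PC3 and 76 and 78 in DU145, and PNMA6B with 0 in PC3 and 176 and 146 in DU145. Over the whole table, 1.23% of genes had 0 counts in both DU145 libraries and at least 10 in both PC3 libraries, and 1.11% had the opposite pattern. Among the MAGE genes 6 of 20 had the first pattern and 0 the opposite.

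Reads from near-identical copies could be assigned to either copy. Of 150-base windows in GENCODE release 29 transcripts, 27.1% of those of MAGEA3 and 25.6% of those of MAGEA6 were shared by both genes. For MAGEA2 and MAGEA2B the shared shares were 88.0% and 77.9%, and for MAGED4B and MAGED4 they were 95.8% and 97.2%. MAGEA6 had 5.52 times the RPKM of MAGEA3 in PC3 with circ0003553 and 5.89 times in PC3 control, a ratio that the shared windows may affect. MAGEA1, MAGEC2, MAGEC3, MAGEA8, MAGED1, MAGED2, MAGEE1, MAGEF1 and MAGEH1 shared no window with another gene.

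Among type II genes, MAGEF1 and MAGEH1 were lower in PC3 and the other 5 were higher. MAGED1, known as NRAGE, a partner of the neurotrophin receptor NGFR, had 2529 and 1893 counts in PC3 with circ0003553 and control, against 1186 and 1560 in DU145, or 10.6 and 9.41 RPKM against 5.41 and 6.82. MAGED2, mutated in an antenatal form of Bartter syndrome, had 15.4 and 15.1 RPKM in PC3, against 7.97 and 10.1 in DU145. Both genes were higher in both PC3 libraries than in either DU145 library, as were 38.2% of all tested genes.

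MAGED4B had 7.04 and 7.93 RPKM in PC3 with circ0003553 and control, against 2.82 and 2.52 in DU145. Its copy MAGED4 had 4.002 and 3.97 RPKM in PC3, against 1.65 and 1.80 in DU145. MAGEE1, which encodes a dystrobrevin-binding protein, had 122 and 154 counts in PC3 with circ0003553 and control, against 2 and 0 in DU145. It was thus the type II gene that came close to the type I pattern.

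MAGEF1, an intronless gene on chromosome 3 and the only member outside the X chromosome, had 1296 and 1040 counts in PC3 with circ0003553 and control, against 1628 and 1734 in DU145. Its product is a partner of the ubiquitin ligase NSMCE1. MAGEH1 had 91 and 58 counts in PC3, against 206 and 212 in DU145. Both genes were lower in both PC3 libraries than in either DU145 library, as were 43.7% of all tested genes.

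Ordered per length, MAGEA6 and MAGEF1 stood highest in PC3, at 20.6 and 22.2 RPKM and at 20.1 and 19.0 RPKM in PC3 with circ0003553 and control. The lower MAGEA6 value lay above the higher MAGEF1 value by less than either gene's spread over the PC3 libraries. They were followed by MAGED2, MAGED1, MAGED4B, MAGED4 and MAGEA3 in both PC3 libraries. MAGED4 and MAGEA3 were close, at 4.002 and 3.97 against 3.74 and 3.78 RPKM. In DU145 the order was MAGEF1 at 27.3 and 27.9 RPKM, then MAGED2, MAGED1, MAGEH1, MAGED4B, MAGED4 and MAGEB17 in both libraries.

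PC3 was compared with DU145 across both plasmids, with the plasmid as a term, to test how the lines differ. Of 21731 genes tested, 66.0% passed an adjusted p of 0.05, with 33.1% higher and 32.9% lower in PC3, so a call by itself sets no gene apart. Of the 20 MAGE genes 14 passed the filter on low counts, and all 14 were called, 12 higher and 2 lower in PC3. The 6 MAGEA genes at 0 in DU145, and MAGEE1 with 2 and 0 counts there, passed that filter through PC3 alone and had to differ, so their calls add nothing to their counts and their p-values are not given. All 7 type II genes passed the filter, 5 higher and 2 lower.

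Against the limit of 3 counts over both DU145 libraries, MAGEA6 was at least 1039-fold higher in PC3, or at least 519-fold with PC3 counts halved to read pairs. MAGEA3 was at least 175-fold higher (87.6-fold with halved counts) and MAGEA12 at least 42.9-fold (21.5-fold with halved counts). MAGEA2 was at least 20.03-fold higher, MAGEA1 at least 12.2-fold and MAGEA2B at least 11.8-fold, and these bounds were 10.02-fold, 6.08-fold and 6.08-fold with halved counts.

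MAGEB17 was 5.30-fold higher in PC3, a log2 fold change of 2.41 ± 0.44 (SE, n = 2 libraries per line, edgeR). With 17 and 6 counts in DU145, it would not have passed the filter on DU145 alone. Its p-value is thus not given. In a fit with no plasmid term the log2 fold change of MAGEB17 was 1.80 without the DU145 control library and 3.39 without the DU145 circ0003553 library. MAGEE1 was higher by a ratio of summed counts of 148 (95% exact conditional binomial interval 40.6 to 1229, and 26.1 to 5891 with halved counts), which rests on 2 counts in DU145. MAGED4B was 2.94-fold higher and MAGED4 2.42-fold higher, with log2 fold changes of 1.56 ± 0.13 and 1.28 ± 0.14 (adjusted p = 5.81e-08 and 9.23e-07 by edgeR). With both copies summed the log2 fold change was 1.46.

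MAGED2 was 1.78-fold and MAGED1 1.73-fold higher in PC3, at log2 fold changes of 0.84 ± 0.11 and 0.79 ± 0.12 (adjusted p = 1.41e-05 and 3.24e-05 by edgeR). MAGEH1 fell by 1.40 ± 0.22 on the log2 scale in PC3 relative to DU145 (adjusted p = 5.44e-05), and MAGEF1 fell by 0.43 ± 0.11 (0.00241, both by edgeR). The MAGEF1 call was lost without the PC3 control library, in a fit with no plasmid term (adjusted p = 0.0719). Fitted values of the 7 type II genes had a median of 0.84, against 0.000991 for all tested genes.

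**Figure D4:**
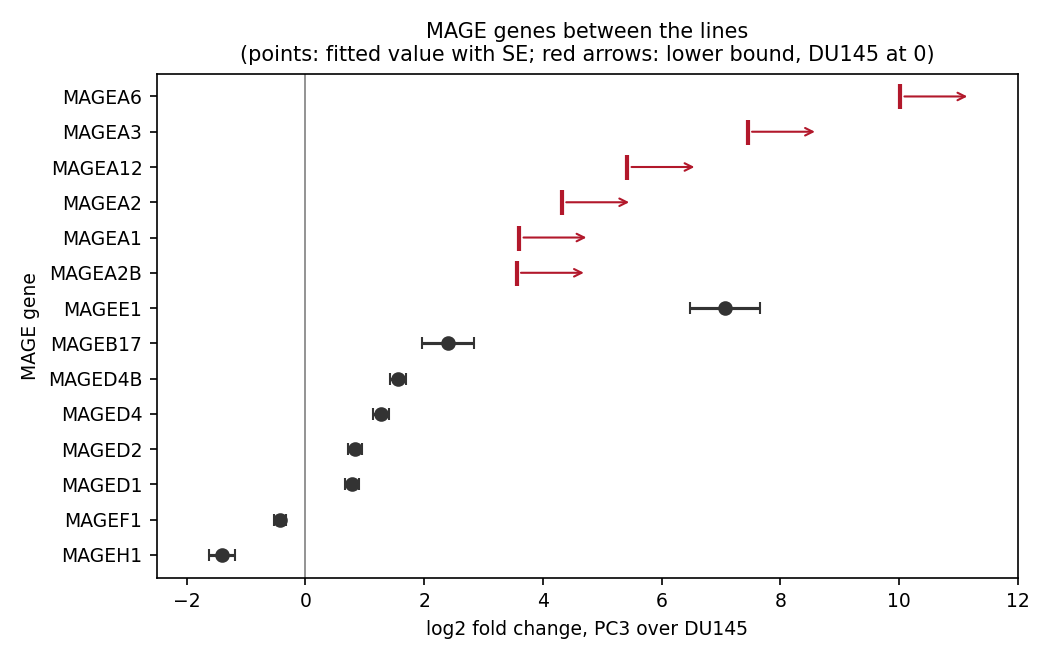
Log2 fold change of PC3 over DU145 for the 14 MAGE genes tested, with points and SE bars for genes with counts in DU145 and red arrows starting at the lower bound on unhalved counts for the 6 genes at 0 there. MAGEA6 has the highest bound, and MAGEF1 and MAGEH1 lie below 0.

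The circ0003553 plasmid was compared with the control plasmid across the lines, with the line as a block, to ask what the circular RNA changed. Of all tested genes 0.465% were called (0.396% higher and 0.0690% lower). Of the 14 MAGE genes tested 0 were called by edgeR's quasi-likelihood test, 0 had an unadjusted p under 0.05, and 0 were called by DESeq2 or limma-voom. DESeq2 gave no adjusted p for MAGEA1, MAGEA2, MAGEA2B, MAGEA12, MAGEB17 and MAGEE1, so it could not call them. The lowest adjusted p was 0.697, for MAGEE1 at a log2 fold change of -0.55 ± 0.33 (SE, n = 2 libraries per plasmid, edgeR), which was 0.18 with DESeq2. A p above the threshold does not show equal levels.

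For the most abundant genes the fitted changes were small. MAGEF1 had a log2 fold change of 0.03 ± 0.11, MAGED1 -0.06 ± 0.12, MAGED2 -0.14 ± 0.11 and MAGED4B -0.01 ± 0.13 (adjusted p = 0.97, 0.94, 0.804 and 0.99 by edgeR). Among type I genes MAGEA6 had -0.13 ± 0.17, MAGEA3 -0.04 ± 0.27 and MAGEA12 0.63 ± 0.43 (adjusted p = 0.896, 0.988 and 0.755 by edgeR), and in each the PC3 libraries hold all the counts. The median over 7 tested type I genes was -0.04 and over 7 type II genes -0.04, against 0.00303 over all tested genes.

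Within a line there was 1 library per plasmid and no test. Ratios were taken for genes with at least 50 counts over the libraries of a line, 12 MAGE genes in PC3 and 6 in DU145. None was 2-fold apart in either line, where 1.34% of all genes with 50 counts were in PC3 and 2.24% in DU145.

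In PC3 the circ0003553 to control ratio was 0.912 for MAGEA6 (95% interval on halved counts 0.822 to 1.01), 0.973 for MAGEA3 (0.751 to 1.26) and 1.55 for MAGEA12 (0.888 to 2.77). The interval lay off 1 for 3 of 12 genes. These were MAGEE1 at 0.660 (0.464 to 0.935), MAGED4B at 0.874 (0.784 to 0.973) and MAGED1 at 1.11 (1.02 to 1.21). In DU145 the interval lay off 1 for 2 of 6 genes, MAGED1 at 0.817 (0.733 to 0.910) and MAGED2 at 0.810 (0.713 to 0.920). MAGEF1 had ratios of 1.04 (0.923 to 1.17) in PC3 and 1.01 (0.915 to 1.11) in DU145. These intervals cover counting error only and not the spread between cultures. The share of all genes whose interval lies off 1 was not taken, so these counts do not set the MAGE genes apart.

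**Figure D5:**
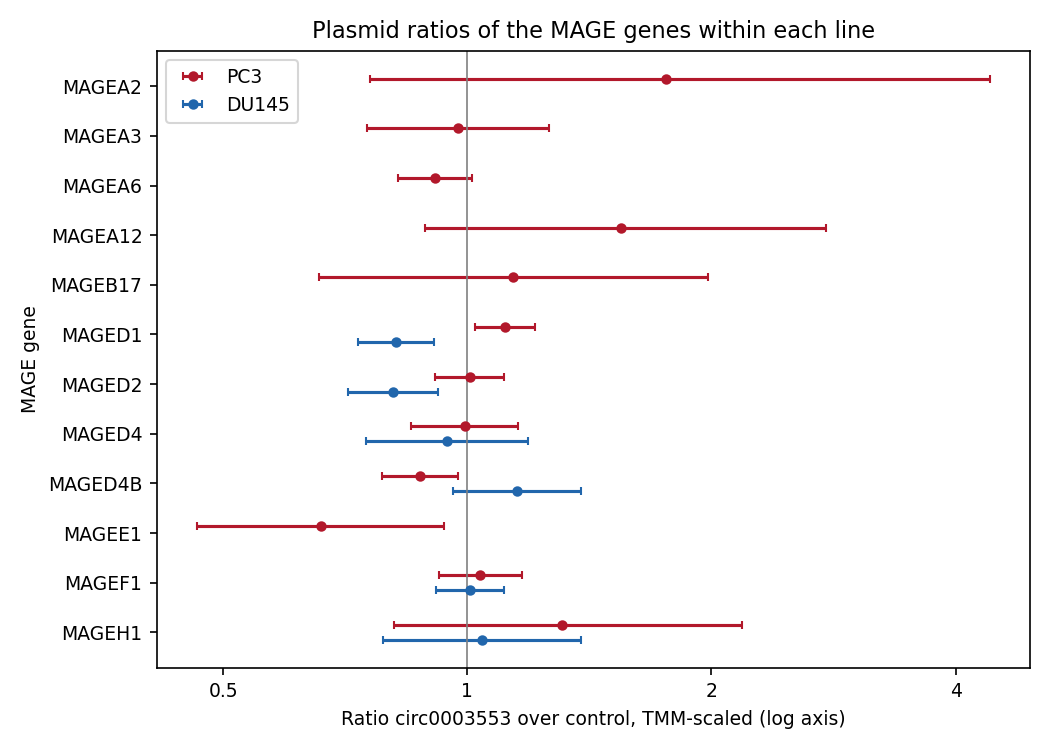
Ratio of circ0003553 over control within PC3 (red) and DU145 (blue) for MAGE genes with at least 50 counts in the line, on a log axis, with 95% intervals on halved counts. Every point lies between 0.660 and 1.76, and MAGED1 lies above 1 in PC3 and below 1 in DU145.

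Other genes with a MAGE domain carry other names. NSMCE3, a subunit of the SMC5/6 DNA repair complex, had 704 and 548 counts in PC3 with circ0003553 and control, against 1020 and 1058 in DU145, and fell by 0.63 ± 0.12 on the log2 scale in PC3 relative to DU145 (adjusted p = 0.000228 by edgeR). TRO, which encodes trophinin, had 2 and 0 counts in PC3 and 14 and 26 in DU145.

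Other X-linked cancer-testis genes were not all on the side of PC3. Of 30 such genes found, 10 were tested, of which 6 were higher and 3 lower in PC3 and 1 was not called, against 66.0% called of all tested genes. The called genes passed the filter on low counts through 1 line alone, and most of them had to differ. CSAG1, XAGE2, SPANXA1, SPANXA2, SPANXB1 and IL13RA2 passed through PC3, and CT83, XAGE1A and XAGE1B through DU145. The share called is thus no result about the list. CSAG1 was at least 53.3-fold higher in PC3 (26.8-fold with halved counts), and CT83 had 0 counts in both PC3 libraries, against 69 and 107 in DU145. Named after their values had been seen, XAGE2 had 44 and 46 counts in PC3 and 0 in DU145, while its relatives XAGE1A and XAGE1B had 2 or fewer in PC3 and 34 to 52 in DU145. SPANXA1, a sperm protein gene also named after its values had been seen, had 61 and 32 counts in PC3 and 4 and 0 in DU145.

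Among 26 autosomal cancer-testis genes found, 20 were tested, 7 higher and 7 lower in PC3, a share near the 66.0% called of all tested genes. BRDT, a testis bromodomain gene, had 0 and 2 counts in PC3 with circ0003553 and control, against 498 and 482 in DU145. LY6K fell by 3.33 ± 0.12 on the log2 scale, while PRAME, an antigen found in many tumours, had 672 and 600 counts in PC3 and 453 and 476 in DU145 (log2 fold change 0.56 ± 0.13). Several others of this list, such as KIF2C (1.34 ± 0.10), SPAG9 (1.31 ± 0.10), ATAD2 (0.87 ± 0.10), CEP55 (-1.39 ± 0.10) and ODF2 (-0.99 ± 0.10), are also transcribed in dividing cells of other tissues. Of the germ cell markers 7 were found and 2 tested. TEX14 was higher in PC3 (2.24 ± 0.37), and SYCP3 was not called (-0.18 ± 0.38). SYCP3 had 40 and 28 counts in PC3 with circ0003553 and control, against 27 and 58 in DU145. With 2 genes tested, the share called is no result about the list, against 66.0% called of all tested genes. DAZL had 0 counts in PC3 and 0 and 1 in DU145.

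Of the 28 partner ligases and substrates of MAGE proteins that were tested, 7 were higher and 11 lower in PC3, or 64.3% called against 66.0% of all tested genes. TRIM28, the partner of MAGEA3, MAGEA6 and MAGEC2, had 9024 and 7817 counts in PC3 with circ0003553 and control, against 3803 and 3785 in DU145 (log2 fold change 1.25 ± 0.10, adjusted p = 3.54e-08 by edgeR). TRIM31, reported as a partner of MAGEA1, was 4.13 ± 0.21 higher on the log2 scale, and LNX1 and the retromer subunit VPS26A were 0.89 ± 0.11 and 0.88 ± 0.11 higher. RNF128 (-2.76 ± 0.33) and SMC5 (-1.27 ± 0.10) were lower. UNC5A, which passed the filter on low counts through DU145, had 10 and 12 counts in PC3 and 143 and 152 in DU145. Chosen outside the naming rule, the AMPK subunit gene PRKAA1 was lower in PC3 by edgeR (-0.61 ± 0.11), and TRIM27 (-0.13 ± 0.10) and NSMCE1 (0.09 ± 0.12) were not called.

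Of 38 tested regulators of DNA methylation and repressive chromatin, 12 were higher and 13 lower in PC3, or 65.8% called against 66.0% of all tested genes. The maintenance methyltransferase DNMT1, also outside the naming rule, had 38488 and 31803 counts in PC3 with circ0003553 and control and 39977 and 38570 in DU145, and was not called (log2 fold change -0.06 ± 0.10). DNMT3B, a de novo methyltransferase, was 1.08 ± 0.16 higher in PC3. TET1 (1.35 ± 0.23) and TDG (1.10 ± 0.11) of the demethylation pathway were also higher, as was the deacetylase gene HDAC1 (2.43 ± 0.10). The histone methyltransferase genes SETDB1 (-1.63 ± 0.11) and SUV39H2 (-1.34 ± 0.16), the chromatin remodeller HELLS (-1.17 ± 0.10) and EED (-0.91 ± 0.11) were lower in PC3. None of the 38 was called between plasmids.

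Of 20 ETS factor genes tested, 8 were higher and 4 lower in PC3, a share below the 66.0% called of all tested genes. FLI1 had 252 and 231 counts in PC3 with circ0003553 and control and 0 in DU145, and ETV1 had 1124 and 889 against 4 and 2. EHF had 131 and 88 counts in PC3 and 8 and 13 in DU145. SPDEF was 2.81 ± 0.19 higher on the log2 scale, and ELF3 (-1.36 ± 0.24), ETS2 (-0.75 ± 0.11) and ELF2 (-0.49 ± 0.13) were lower. Of the neighbours of the MAGEA genes listed from the X chromosome, 25 were tested, 8 higher and 6 lower in PC3. This was 56.0% called, against 66.0% of all tested genes. CSAG1, GABRA3 and AFF2 passed the filter through PC3 and PNMA6A and GABRQ through DU145, so this share too is no result about the list. AFF2 had 64 and 86 counts in PC3 and 0 in DU145. The transporter gene SLC6A8 was 3.21 ± 0.17 higher on the log2 scale, and HMGB3, a high-mobility group gene, fell by 1.43 ± 0.10. Which of these genes bears on MAGE transcription was not tested.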

How the data were processed

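RNA from 4 transfected cultures was depleted of ribosomal RNA, made into stranded libraries with 8-base molecular identifiers and sequenced as 150-base read pairs, per the labels' protocols. Raw counts per gene were deposited, and the authors' RPKM values equal those counts over gene length and column total. The submitters' processing notes name hg38, Trimmomatic 0.36, featureCounts, Subread 1.5.1 and edgeR 3.12.1. The aligner, the strand setting and any collapsing of identifiers are not stated there or in the labels. Most low counts were even, so intervals were also taken on halved counts.

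Counts were tested with edgeR 4.0.16 in R 4.3.3 (quasi-likelihood test, TMM scaling, a filter on low counts, Benjamini-Hochberg adjusted p under 0.05) in 1 fit with line and plasmid as terms over all 35211 genes before filtering. The fit has 1 residual degree of freedom and leans on the spread shared across genes (13.4 prior degrees of freedom). The cell line pairs the libraries by the labels, so it is the block of the plasmid comparison. Nothing says the libraries of a line came from separate cultures beyond their plasmid. The p-values rest on how far these libraries depart from the sum of line and plasmid effects and on the spread shared across genes. They do not measure a spread between replicate cultures. SE is the log2 fold change over the root of the F statistic. Within a line, ratios carry exact conditional binomial intervals. The procedure was tested on simulated data. DESeq2 1.42.0, limma-voom (limma 3.58.1), other scalings, no filter, halved counts, summed copies and left-out libraries were tried.

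Named are the MAGE genes with at least 10 counts in 1 library, and from each other list up to 4 called genes in each direction by size of change, at a mean log2 CPM no lower than 0. The members and lists were chosen with earlier results of these data known. Some genes that this rule or the marker lists would name are not reported here.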

Additional observations from a re-analysis of the deposited data

Results flagged for a closer look

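3 MAGED genes had ratios of circ0003553 over control on opposite sides of 1 in the lines. MAGED1 had a ratio of 1.11 in PC3 and 0.817 in DU145. MAGED2 had 1.01 in PC3, where the interval spans 1, and 0.810 in DU145. MAGED4B had 0.874 in PC3 and 1.15 in DU145, where the interval spans 1, and its reads can be assigned to MAGED4. With 1 library per line and plasmid, the difference between the lines was not tested. The share of all genes with ratios on opposite sides of 1 was not taken, so the pattern is not shown to be particular to MAGED genes.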

How the results depend on the processing

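The count of MAGE genes called between plasmids was 0 under every alternative run, though DESeq2 gave no adjusted p for some of these genes. Of all genes tested, 101 were called between plasmids, against 63 with DESeq2, 26 with limma-voom, 53 with legacy dispersions, 9 with no filter on low counts and 0 with no replicate block. The cause was not tested. Between the lines, 14 MAGE genes were called, and 13 to 14 with each library left out in turn in a fit with no plasmid term, while 11093 to 13522 of all genes were called, against 13642 in the same fit with all libraries (14332 with the plasmid term). With halved counts 12 MAGE genes were tested and called, since MAGEA1 and MAGEA2B no longer passed the filter. The other calls lost were MAGEF1 without the PC3 control library (adjusted p = 0.0719) and MAGEA12 with DESeq2 (adjusted p = 0.0728). No called value changed sign, while 2 uncalled plasmid values did with DESeq2, MAGEE1 (0.18, against -0.55 by edgeR) and MAGEA3 (0.02, against -0.04). The plasmid comparison across lines could not be refitted with a library left out, since no residual degree of freedom is left. Genes under 10 counts are limited by depth.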
